A study of Homo sapiens with 12 samples.

Results

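The genes described here are 10 members of the JmjC family of oxygenases that act on histones: KDM2A, KDM2B, KDM3A, KDM3B, KDM4A, KDM4B, KDM4C, KDM5B, KDM6B and JMJD6. They were picked by symbol, with earlier results of these data known, from the 25369 genes of a poly(A)+ RNA-seq count table. RKO cells (colon carcinoma), A549 cells (lung adenocarcinoma) and H460 cells (large cell lung carcinoma) were each kept in normoxia or exposed to hypoxia (1% O2) for 24 h, with 2 independent biological replicates in each of the 6 groups and so 12 libraries. RKO and A549 cells grew in DMEM and H460 cells in RPMI, so that line and medium cannot be told apart in any comparison with H460. The study described no transgene, engineered deletion or further treatment for any of these groups, and each cancer is represented by 1 established line. The question put to the members was which of them change in mRNA level after a day of low oxygen, and whether they do so alike in the 3 lines.

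JmjC demethylases remove methyl groups from histone lysines in a reaction that consumes molecular oxygen and 2-oxoglutarate and needs ferrous iron, so their catalysis itself can slow when oxygen falls. Several of their genes are also known targets of the hypoxia-inducible factors (HIFs), transcription factors that bind short DNA elements with a common core. The members differ in substrate: the KDM3 enzymes act on mono- and dimethylated H3K9, the KDM4 enzymes on trimethylated H3K9 and H3K36, KDM5B on H3K4, KDM6B on H3K27 and the KDM2 enzymes mainly on H3K36. JMJD6 is a lysyl hydroxylase that has also been described as an arginine demethylase.

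The core letters of the HIF element were looked up in the promoters. Sequences are shown for 3 members, KDM3A, KDM4B and KDM5B, which carry such a match and were called higher in hypoxia in RKO and H460. A match did not set these apart. KDM2A and KDM4C, called higher in H460, also carry matches and are not shown. KDM2B and KDM6B were called higher in H460 without a match, and KDM4A has a match but was not called in any line. Windows of 250 bases upstream of the start site came from a RefSeq promoter table and were placed by exact match on GRCh37. Of the 10 members, 9 had an entry, JMJD6 being the other. KDM2B had 4 entries and KDM2A, KDM3A and KDM6B had 2 each. For each gene only the entry nearest the start in the count table was kept, so matches at other start sites are not given. The letters searched were ACGTG and GCGTG on both strands, where a CACGTG counts once on each strand. They occurred in 6 of the 9 kept windows, against 43.2% of all 35093 promoter windows of the table, where a gene can have several windows. The KDM4B window held 4 matches and the KDM4C window 5, and 7.75% of all windows held at least 3. KDM2A had 3 matches, KDM3A, KDM4A and KDM5B had 1 each, and KDM2B, KDM3B and KDM6B had 0. The whole KDM4B window is given on the plus strand at chr19:4968874-4969123, and for KDM3A (plus strand, chr2:86668456-86668485) and KDM5B (minus strand, chr1:202777596-202777625) the 30 bases around the match, 5′ to 3′, with matches in capitals.
KDM4B: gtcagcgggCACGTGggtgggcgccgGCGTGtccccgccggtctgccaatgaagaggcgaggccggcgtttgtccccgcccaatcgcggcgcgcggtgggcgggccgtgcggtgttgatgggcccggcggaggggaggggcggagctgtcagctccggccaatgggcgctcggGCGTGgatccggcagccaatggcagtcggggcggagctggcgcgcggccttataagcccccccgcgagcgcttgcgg
KDM3A: ccgggaggctgtGCGTGtcttgtgagagct
KDM5B: cggaggcgcacgGCGTGggcttgcggcgag
Counted from the RefSeq start, the KDM3A match began at base -26 and the KDM5B match at base -64. The RefSeq start of KDM3A lies 223 bases downstream of the start in the count table, so that the KDM3A match falls inside the gene range of that table. In the KDM4B window the first capitals, beginning at base -241, are a palindromic CACGTG, a form found in 6.34% of all windows. The 37110 bases between the RefSeq start used for KDM4C and the start in the count table were the largest such distance among the members. A match is a run of letters and no evidence of binding.

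Counted reads per library ranged from 27350424 to 41757584, and the members had between 626 and 18000 reads per library. All 10 members passed the filter on low counts in every line (over 0.5 CPM, counts scaled to library size, in at least 2 of the 4 libraries). The chi-square of a replicate pair per degree of freedom, near 1 where only counting error is present, ran from 9.87 (H460 hypoxia) to 75.9 (A549 normoxia). Levels are given as RPKM (reads per kilobase of gene length, per library size) with library sizes scaled by edgeR's TMM factors, and can be compared between genes. Without TMM, log2 fold changes in H460 moved by -0.35 in the median gene, those in RKO by 0.08 and those in A549 by -0.09. Of the colon markers, CDX2 stood between 3.95 and 6.61 RPKM in RKO, VIL1 and CDX1 were at 0 there, and LGALS4 and KRT20 were at most 0.0417 RPKM. LGALS4 reached 1.14 RPKM in A549. Of the lung markers, SFTA3 was at 0 in every library and NKX2-1 was at most 0.0763 RPKM in A549. NAPSA ranged from 2.34 to 3.51 RPKM in A549, and was at most 0.524 RPKM in H460 and 0.0531 RPKM in RKO. SFTPB and SFTPC were at most 0.0619 RPKM in any library. In H460, NKX2-1 went from at most 0.0283 RPKM in normoxia to 1.36 and 1.46 RPKM in hypoxia. KRT8 and KRT18 were above 238 RPKM in every A549 and H460 library. In RKO, KRT8 ranged from 3.57 to 5.71 RPKM and KRT18 from 57.7 to 119 RPKM. CDH1 was at most 0.130 RPKM in RKO and H460 and ranged from 13.6 to 21.8 RPKM in A549. EPCAM ranged from 7.72 to 11.5 RPKM in A549 and from 2.64 to 3.57 RPKM in RKO. In H460 it was at most 0.290 RPKM.

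KDM3A and KDM4B rose in hypoxia in all 3 lines, KDM5B in RKO and H460, and KDM2A, KDM2B, KDM4C, KDM6B and JMJD6 in H460. No member was called lower in any line. In such bulk libraries a change in mRNA per cell and a change in the share of cells that make it cannot be told apart. Calls needed an adjusted p under 0.1 (edgeR's quasi-likelihood test fitted per line, Benjamini-Hochberg over all genes tested) together with more than a 1.5-fold change. In RKO 3 of 10 members rose, where 18.8% of all tested genes did. In A549 2 of 10 rose, against 2.22% of all genes, and in H460 8 of 10 rose, against 24.6%. Of the genes tested in all 3 lines, 0.977% (116 of 11873) rose in each, and 2 of the 10 members were among them. In the other direction 0 members were called in each line, where 15.1%, 0.456% and 27.3% of all genes fell in RKO, A549 and H460, and 0 members had a lower level at an unadjusted p under 0.05 in edgeR or a lower call in DESeq2. The members' median log2 fold changes of 0.47 for RKO, 0.23 for A549 and 1.24 for H460 stood beside medians over all tested genes of 0.01, -0.01 and -0.04. Because the members were chosen with earlier results of these data known, these shares and medians describe them and are no test of the family.

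**Figure D1:**
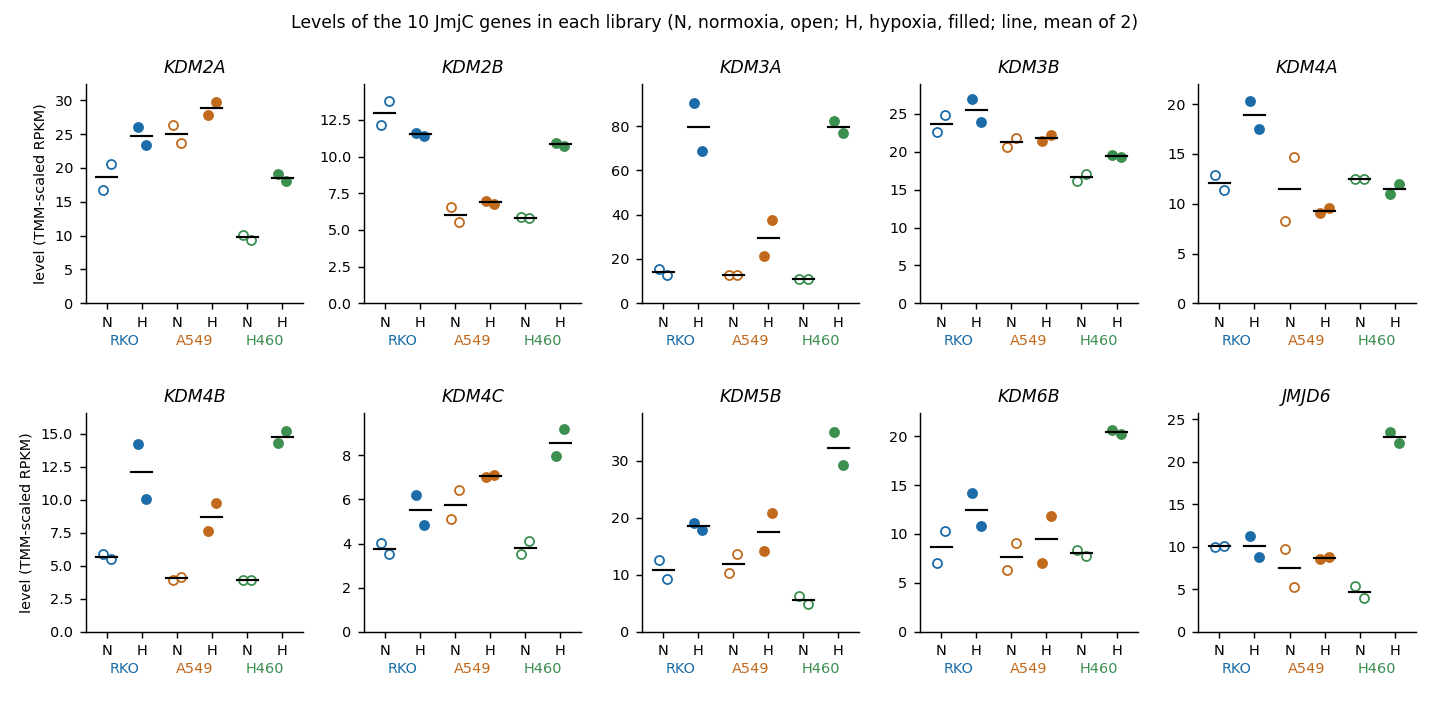
Level of each JmjC gene (y axis, TMM-scaled RPKM, own scale from 0 for each gene) in the 12 libraries, by line and oxygen (x axis). Points are libraries, open for normoxia and filled for hypoxia, and the black line is the mean of 2. KDM3A in hypoxia lies at 68.6 RPKM or more in RKO and H460 and at 21.5 and 37.5 RPKM in A549.

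KDM3A, which removes methyl groups from H3K9 and lies at chr2:86668271-86719839 on the plus strand (GRCh37), was the member with the largest log2 fold change in each line, though in A549 not without hypoxia replicate 2, where KDM4B changed more (0.91 against 0.76). In RKO its level was 15.3 and 12.7 RPKM in normoxia and 90.2 and 68.6 RPKM in hypoxia. In A549 it was 12.6 and 12.7 RPKM in normoxia and 21.5 and 37.5 RPKM in hypoxia. In H460 it was 10.97 and 10.95 RPKM in normoxia, and 82.4 and 77.1 RPKM in hypoxia. Every hypoxia library thus lay above every normoxia library, and the A549 hypoxia pair lay between the normoxia libraries and the hypoxia libraries of the other lines. RKO cells gave a log2 fold change of 2.44 ± 0.19 (SE), A549 cells 1.21 ± 0.25 and H460 cells 2.85 ± 0.09, with edgeR adjusted p of 4.08e-05, 0.0583 and 9.91e-10. The A549 call rested on hypoxia replicate 2, without which the log2 fold change was 0.76. It was also lost with library size only (1.11, edgeR adjusted p = 0.113). With limma on log2 RPKM it was lost as well (1.06 and 1.01 with pseudocounts of 0.1 and 1).

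The effect on KDM3A was larger in RKO than in A549 by 1.28 ± 0.30 on the log2 scale (adjusted p = 0.0201 for the interaction in the joint edgeR fit of 12 libraries), and smaller in A549 than in H460, with a difference of -1.64 ± 0.30 (adjusted p = 0.0016). Between RKO and H460 the difference was -0.36, with a 95% interval from -1.0 to 0.28, and was not called. In normoxia the KDM3A level did not pass the test between any pair of lines, the largest log2 ratio being 0.35 (interval -0.10 to 0.81) for RKO over H460. The summed level of 6 leukocyte, endothelial and fibroblast markers was 7.94 to 14.1 RPKM in A549 normoxia and 21.9 to 72.5 RPKM in A549 hypoxia. Nearly all of it was COL1A1, since without COL1A1 the sum of the other 5 was at most 0.0535 RPKM, and COL1A2 and CD3E were at or near 0. The same sum was at most 0.375 RPKM in RKO and 3.17 RPKM in H460.

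KDM3B, the close paralogue of KDM3A (chr5:137688285-137772716, plus strand), was not called in any line. In normoxia it was the most abundant member in RKO, at 22.6 and 24.8 RPKM, and in H460, at 16.1 and 17.1 RPKM. Its hypoxia levels were 27.0 and 24.0 RPKM for RKO, 21.4 and 22.2 RPKM for A549, and 19.5 and 19.3 RPKM for H460, and the A549 normoxia levels 20.6 and 21.9 RPKM. The conditions overlapped in RKO and A549, and in H460 the hypoxia libraries were the higher ones. The log2 fold changes were 0.04 in RKO (95% interval -0.29 to 0.38), 0.02 in A549 (-0.35 to 0.39) and 0.21 in H460 (0.02 to 0.39). The H460 value passed the adjusted p (0.0411) but was a fold of 1.16, and its sign depended on the scaling, being -0.14 with library size only. In each of the 3 lines both normoxia libraries had more KDM3B than KDM3A and both hypoxia libraries more KDM3A than KDM3B, although in A549 hypoxia replicate 1 the levels were nearly equal (21.5 RPKM of KDM3A and 21.4 RPKM of KDM3B).

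KDM4B, a demethylase of trimethylated H3K9 and H3K36 (chr19:4969124-5153608, plus strand), had one of the lowest normoxia levels and rose in all 3 lines. It was at 5.86 and 5.51 RPKM in RKO normoxia and at 14.3 and 10.1 RPKM in RKO hypoxia. The A549 libraries read 3.94 and 4.18 RPKM in normoxia, then 7.66 and 9.74 RPKM in hypoxia. Those of H460 read 3.96 and 3.95 RPKM in normoxia, then 14.3 and 15.3 RPKM in hypoxia. No hypoxia library overlapped the normoxia libraries of its line. The change was 1.03 ± 0.19 on the log2 scale for RKO, 1.08 ± 0.20 for A549 and 1.89 ± 0.09 for H460 (edgeR adjusted p of 0.00191, 0.0416 and 1.14e-08). The A549 call was lost with limma on log2 RPKM (0.97 and 0.84 with pseudocounts of 0.1 and 1). The RKO and A549 effects differed by -0.002 (interval -0.51 to 0.51), which was not called, whereas both were smaller than the H460 effect, with differences of -0.81 (adjusted p = 0.0225) and -0.80 (adjusted p = 0.0254). The RKO and H460 effects no longer differed by the test with library size only (-0.43, adjusted p = 0.167).

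Its paralogue KDM4C (chr9:6720863-7175648, plus strand) had normoxia levels of 4.01 and 3.53 RPKM for RKO, 5.09 and 6.43 RPKM for A549, and 3.51 and 4.10 RPKM for H460. Its hypoxia levels were 6.18 and 4.83 RPKM for RKO, 6.99 and 7.10 RPKM for A549, and 7.96 and 9.17 RPKM for H460. The hypoxia libraries were the higher ones in each line, but the call was made in H460 alone, at a log2 fold change of 1.15 ± 0.11 (adjusted p = 2.32e-06). In RKO it was 0.48 ± 0.18 (adjusted p = 0.0564, under the fold minimum) and in A549 0.28 ± 0.20 (adjusted p = 0.52). Without RKO hypoxia replicate 2 the RKO value was 0.66 and passed both thresholds.

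KDM4A, the third KDM4 gene (chr1:44115797-44171189, plus strand), behaved differently from both. Its RKO levels were 12.8 and 11.4 RPKM in normoxia and 20.4 and 17.5 RPKM in hypoxia. In A549 they were 8.28 and 14.7 RPKM in normoxia and 9.07 and 9.57 RPKM in hypoxia. In H460 they were 12.5 in both normoxia libraries, and 11.02 and 11.97 RPKM in hypoxia. The hypoxia libraries were above the normoxia libraries in RKO, between them in A549 and below them in H460. In RKO the log2 fold change of 0.58 ± 0.16 (adjusted p = 0.014) was a fold of 1.497, just under the minimum, and it passed with library size only (0.66). The values of -0.32 ± 0.26 in A549 and -0.13 ± 0.09 in H460 missed the test (adjusted p = 0.584 and 0.201). KDM4A was the only member with a larger effect in RKO than in both other lines by the interaction test, by 0.95 over A549 (adjusted p = 0.0596) and 0.76 over H460 (adjusted p = 0.0622). These calls were lost when single libraries were left out in 5 of 8 and 6 of 8 cases, with the difference from A549 falling to 0.47 without A549 normoxia replicate 2.

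KDM5B, which demethylates H3K4 (chr1:202696532-202777549, minus strand), had the second largest change in H460. Its H460 levels were 6.35 and 4.95 RPKM in normoxia and 35.0 and 29.3 RPKM in hypoxia, the highest hypoxia levels of KDM5B in any line. In RKO they were 12.5 and 9.25 RPKM in normoxia and 19.04 and 17.9 RPKM in hypoxia. In A549 they were 10.3 and 13.6 RPKM in normoxia and 14.1 and 20.9 RPKM in hypoxia. The groups did not overlap in any line, although in A549 the lower hypoxia library lay close to the higher normoxia library. The log2 fold changes were 2.49 ± 0.13 in H460 (adjusted p = 1.39e-08), 0.70 ± 0.17 in RKO (adjusted p = 0.00944) and, not called, 0.53 ± 0.23 in A549 (adjusted p = 0.281). The RKO value dropped to 0.49, under the fold minimum, without RKO normoxia replicate 2, and the A549 value reached 0.77 (adjusted p = 0.0325) without A549 hypoxia replicate 1. The effect was larger in H460 than elsewhere, with differences of -1.75 ± 0.30 for RKO minus H460 and -1.96 ± 0.30 for A549 minus H460 (adjusted p = 0.000815 and 0.000509).

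KDM5B also began lower in H460. In normoxia its level was higher in RKO than in H460 by 0.95 ± 0.21 and in A549 than in H460 by 1.08 ± 0.21 on the log2 scale, and all 4 RKO and A549 libraries lay above both H460 libraries. In hypoxia the order of the lines was the other way round, with both H460 libraries above the 4 libraries of RKO and A549.

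KDM6B, which removes methyl groups from H3K27 (chr17:7743235-7758118, plus strand), had levels of 7.06 and 10.3 RPKM in RKO normoxia and 14.2 and 10.8 RPKM in RKO hypoxia. In A549 it was at 6.27 and 9.07 RPKM in normoxia and at 7.08 and 11.9 RPKM in hypoxia, so that the conditions overlapped. In H460 it was at 8.33 and 7.77 RPKM in normoxia and at 20.6 and 20.2 RPKM in hypoxia, clear of each other. It rose in H460 by 1.33 ± 0.09 on the log2 scale (adjusted p = 8.91e-08). The values of 0.46 ± 0.20 for RKO (adjusted p = 0.0918) and 0.29 ± 0.27 for A549 (adjusted p = 0.633) were not called. The RKO value passed both thresholds without RKO hypoxia replicate 2 (0.66) or normoxia replicate 2 (0.76).

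JMJD6, the lysyl hydroxylase (chr17:74708914-74722881, minus strand), showed the sharpest contrast between lines. In H460 it had 5.36 and 4.002 RPKM in normoxia and 23.5 and 22.2 RPKM in hypoxia. In RKO it had 9.92 and 10.1 RPKM in normoxia and 11.3 and 8.84 RPKM in hypoxia. In A549 it had 9.74 and 5.28 RPKM in normoxia and 8.55 and 8.77 RPKM in hypoxia. The conditions were well apart in H460 and overlapped in both other lines. It rose in H460 by 2.28 ± 0.13 on the log2 scale (adjusted p = 2.39e-08), against -0.06 (interval -0.42 to 0.31) in RKO and 0.19 (interval -0.42 to 0.80) in A549, neither of which was called. The H460 effect exceeded the others, with differences of -2.29 ± 0.33 for RKO minus H460 and -2.08 ± 0.33 for A549 minus H460 (adjusted p = 0.000239 and 0.000607), the largest of the members' differences between lines.

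KDM2A (chr11:66886740-67025550, plus strand) and KDM2B (chr12:121866900-122018920, minus strand), which act on H3K36 and bind unmethylated CpG islands, rose in H460 and were not called in the other lines. KDM2A was at 10.1 and 9.42 RPKM in H460 normoxia and at 19.1 and 18.1 RPKM in H460 hypoxia. KDM2B was at 5.88 and 5.78 RPKM in H460 normoxia and at 10.9 and 10.7 RPKM in H460 hypoxia. For both genes the H460 conditions were far apart compared with the replicates, at log2 fold changes of 0.91 ± 0.09 and 0.88 ± 0.09 (adjusted p = 1.87e-06 and 3.18e-06). With library size only the changes were 0.56 and 0.53, under the 1.5-fold minimum though still past the adjusted p.

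In RKO, KDM2A had 16.8 and 20.6 RPKM in normoxia and 26.1 and 23.4 RPKM in hypoxia (0.34 ± 0.16, adjusted p = 0.115). KDM2B had 12.1 and 13.8 RPKM in normoxia and 11.6 and 11.4 RPKM in hypoxia there (-0.23 ± 0.15, adjusted p = 0.245), the only member besides KDM4A in H460 whose hypoxia libraries all lay below the normoxia libraries of a line. In A549, KDM2A went from 26.4 and 23.8 to 27.8 and 29.8 RPKM and KDM2B from 6.53 and 5.53 to 6.98 and 6.78 RPKM, with log2 fold changes of 0.18 and 0.17 that were not called (adjusted p = 0.632 and 0.694). KDM2A was the most abundant member in A549 normoxia.

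**Figure D2:**
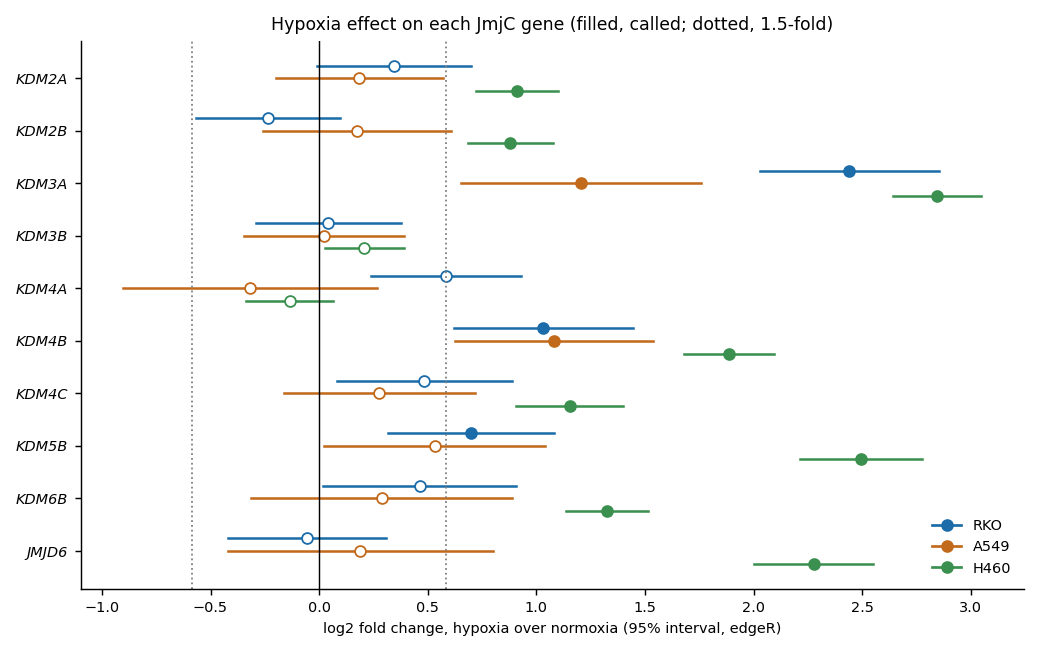
Log2 fold change of each JmjC gene, hypoxia over normoxia (x axis), in RKO, A549 and H460 (colours), with the 95% interval of the edgeR fit. Filled points were called and dotted lines mark a 1.5-fold change; KDM3A and KDM4B are filled in all 3 lines and KDM5B in RKO and H460.

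The comparison of the lines turned mostly on H460. The hypoxia effect differed between RKO and H460 for 8 of 10 members (all but KDM3A and KDM3B) at an adjusted p under 0.1, where 37.6% of all genes differed. Between A549 and H460 it differed for 8 of 10 (all but KDM3B and KDM4A), where 36% of all genes differed, and in each of these 8 the effect was larger in H460. Between RKO and A549 it differed for 2 of 10, KDM3A and KDM4A, where 14.6% of all genes differed. The RKO and H460 count was 4 with library size only, since KDM2A, KDM4B, KDM4C and KDM6B then missed the test. Between A549 and H460, KDM2B missed it with library size only (-0.44, adjusted p = 0.104) and with limma at a pseudocount of 0.1 (adjusted p = 0.107), and KDM6B with limma at pseudocounts of 0.1 and 1 (adjusted p = 0.141 and 0.135). Leaving out single libraries ended the RKO and H460 call in 6 of 8 cases for KDM2A, KDM4A and KDM6B and in 4 of 8 for KDM4C, and the A549 and H460 call of KDM6B in 2 of 8 (-0.71 without A549 hypoxia replicate 1 and -0.75 without A549 normoxia replicate 2). These comparisons share the libraries of each line, so they are not independent of each other.

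**Figure D3:**
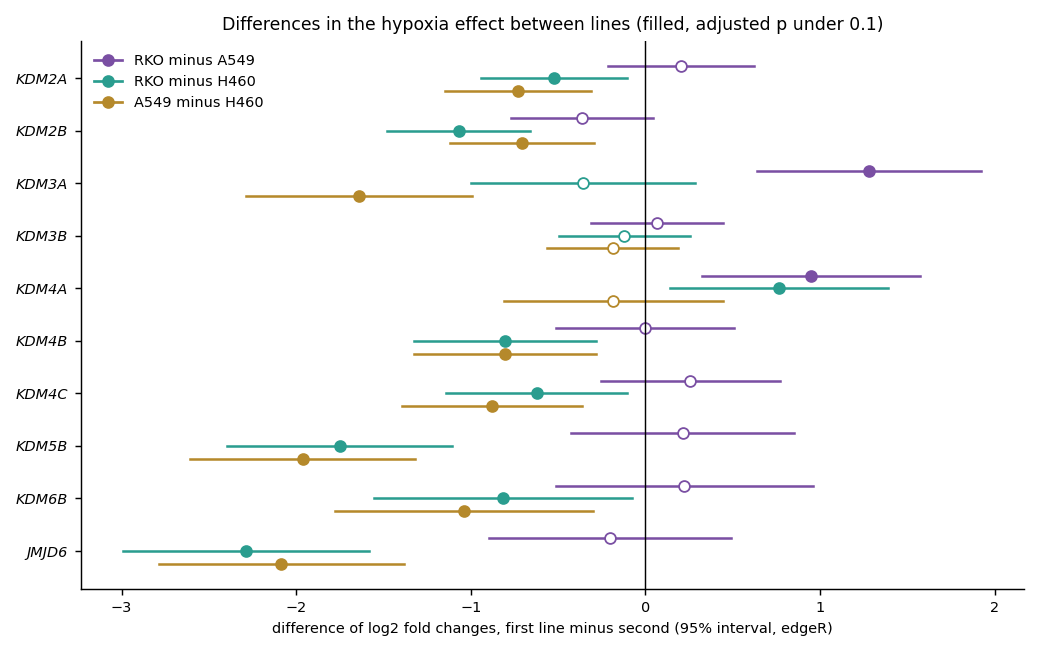
Difference between lines in the log2 fold change of each JmjC gene (x axis, first line minus second), with the 95% interval of the joint edgeR fit. Filled points had an adjusted p under 0.1; JMJD6 and KDM5B lie farthest to the left for both comparisons with H460.

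In normoxia KDM2A, KDM2B, KDM4C, KDM5B and JMJD6 differed between at least 1 pair of lines, and KDM3A, KDM3B, KDM4A, KDM4B and KDM6B were not called between any pair. RKO and A549 differed in 2 of 10 members (KDM2B and KDM4C), where 60.2% of all genes passed an adjusted p under 0.1 and a 1.5-fold difference. RKO and H460 differed in 4 of 10 (KDM2A, KDM2B, KDM5B and JMJD6), where 61.9% of all genes did, and A549 and H460 in 4 of 10 (KDM2A, KDM4C, KDM5B and JMJD6), where 52.1% did. KDM2B was higher in RKO than in A549 by 1.11 ± 0.14 and than in H460 by 1.15 ± 0.14 on the log2 scale, with both RKO libraries above the other 4. KDM2A was higher in A549 than in H460 by 1.36 ± 0.14 and in RKO than in H460 by 0.94 ± 0.14. KDM4C was higher in A549 than in RKO and in H460, at log2 ratios of -0.61 ± 0.17 for RKO over A549 and 0.60 ± 0.17 for A549 over H460, and both of these calls were lost without A549 normoxia replicate 2 (log2 ratios of -0.44 for RKO over A549 and 0.42 for A549 over H460). The first was also lost without RKO normoxia replicate 2 (-0.53), and the second without H460 normoxia replicate 1 (0.48). With the replicate number as a block the first was -0.38, under the fold minimum. That contrast compares the lines at replicate 1, so it is no measure of a difference adjusted for replicate. JMJD6 was higher in RKO than in H460 by 1.10 ± 0.23. The JMJD6 difference between A549 and H460 (0.68 ± 0.23, adjusted p = 0.0205) came from overlapping libraries and was lost without A549 normoxia replicate 1 (0.17) or H460 normoxia replicate 2 (0.48).

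The summed level of the 10 genes and its make-up changed with oxygen. The sum was 119 and 122 RPKM in RKO normoxia and 240.1 and 197 RPKM in RKO hypoxia. It was 109.7 and 117 RPKM in A549 normoxia and 131 and 164 RPKM in A549 hypoxia, and 83.0 and 80.5 RPKM in H460 normoxia against 244 and 233 RPKM in H460 hypoxia. The sums depend on the scaling, as the TMM factors were 0.786 and 0.829 for H460 hypoxia and 1.04 and 1.12 for RKO hypoxia. With the deposited RPKM, which are not TMM-scaled, the hypoxia sums were higher in RKO than in H460. KDM3A made up a mean of 11.6% of the sum in RKO normoxia and 36.2% in RKO hypoxia, 11.2% and 19.6% in A549, and 13.4% and 33.4% in H460. In hypoxia KDM3A had the highest mean share of the 10 in RKO and H460. In A549 hypoxia KDM3A and KDM2A were nearly equal, with mean shares of 19.6% and 19.7% and mean levels of 29.5 and 28.8 RPKM. KDM3A lay above KDM2A there in replicate 2 only. In H460 hypoxia KDM5B (13.4%) and JMJD6 (9.58%) followed, from ranks 7 and 8 in normoxia. KDM4B stayed at 6.19% of the sum or less as a mean in every group. These shares are of mRNA and say nothing of enzyme amounts or of activity at 1% O2.

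**Figure D4:**
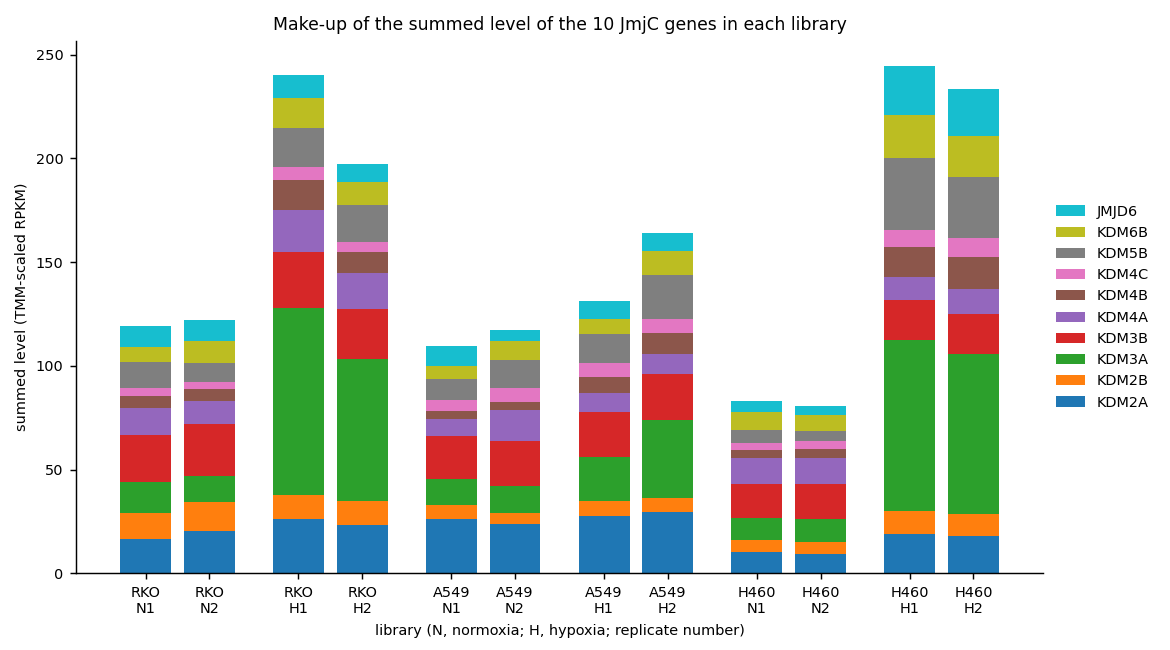
Summed level of the 10 JmjC genes in each library (y axis, TMM-scaled RPKM from 0), stacked by gene; N is normoxia, H is hypoxia and the number is the replicate. The KDM3A block is 68.6 RPKM or more in the RKO and H460 hypoxia libraries, and H460 goes from the lowest sums in normoxia to sums of 233 and 244 RPKM.

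Across the 12 libraries KDM4B followed KDM3A most closely among the members. Pearson correlations were computed on log2 CPM over the 12423 genes with a mean of at least 100 counts, and describe 12 points that share lines and oxygen groups. The genes most like KDM3A were PDZD7 (r = 0.977), RAB11B (r = 0.973) and SNX33 (r = 0.973). KDM4B came at rank 5 (r = 0.967), KDM5B at rank 194 (r = 0.859), KDM6B at rank 283 (r = 0.829) and JMJD6 at rank 701 (r = 0.727). KDM3B, with r = 0.355, was at rank 2942.

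The other JmjC proteins moved in both directions. Of 20 further JmjC genes, listed by function, 19 were tested in RKO, of which 3 rose and 5 fell, and 18 in H460, of which 5 rose and 6 fell. The background was the same 18.8% and 15.1% of genes higher and lower in RKO, and 24.6% and 27.3% in H460. With library size only, 3 rather than 5 were called higher in H460. DESeq2 called 4 lower in RKO and 5 lower in H460. In A549, edgeR called 0 of 19 in either direction, with 0 higher and 3 lower at an unadjusted p under 0.05, and DESeq2 called 2 lower. Their median log2 fold change was -0.05 for RKO, -0.16 for A549 and 0.26 for H460. All the genes of this list named next were chosen after their values were seen.

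KDM5C, an H3K4 demethylase and paralogue of KDM5B, went from 31.8 and 34.5 to 79.2 and 56.6 RPKM in RKO (0.97 ± 0.18) and from 25.8 in both libraries to 63.6 and 58.6 RPKM in H460 (1.23 ± 0.09). KDM7A, which acts on H3K9 and H3K27, rose by 1.54 ± 0.29 in RKO and 2.22 ± 0.10 in H460. Both were called in these lines and missed the test in A549, at 0.02 (adjusted p = 0.974) for KDM5C and 0.61 (adjusted p = 0.527) for KDM7A. HR, the hairless H3K9 demethylase, was called higher in RKO (1.59 ± 0.23), and KDM5A, JMJD1C and JARID2 in H460.

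JMJD4, JMJD8, RIOX1, RIOX2 and KDM8 fell in both RKO and H460, and HSPBAP1 fell in H460. RIOX1 and RIOX2 are ribosomal oxygenases, listed in the count table as C14orf169 and MINA, and JMJD4 hydroxylates a translation termination factor. RIOX2 went from 13.3 and 12.7 to 3.63 and 5.66 RPKM in RKO (-1.54 ± 0.21) and from 9.31 and 9.84 to 3.14 and 2.86 RPKM in H460 (-1.69 ± 0.10). JMJD4 changed by -1.38 ± 0.21 in RKO and by -2.02 ± 0.12 in H460, and in A549 by -0.85 ± 0.23 (adjusted p = 0.131), which was not called.

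**Figure D5:**
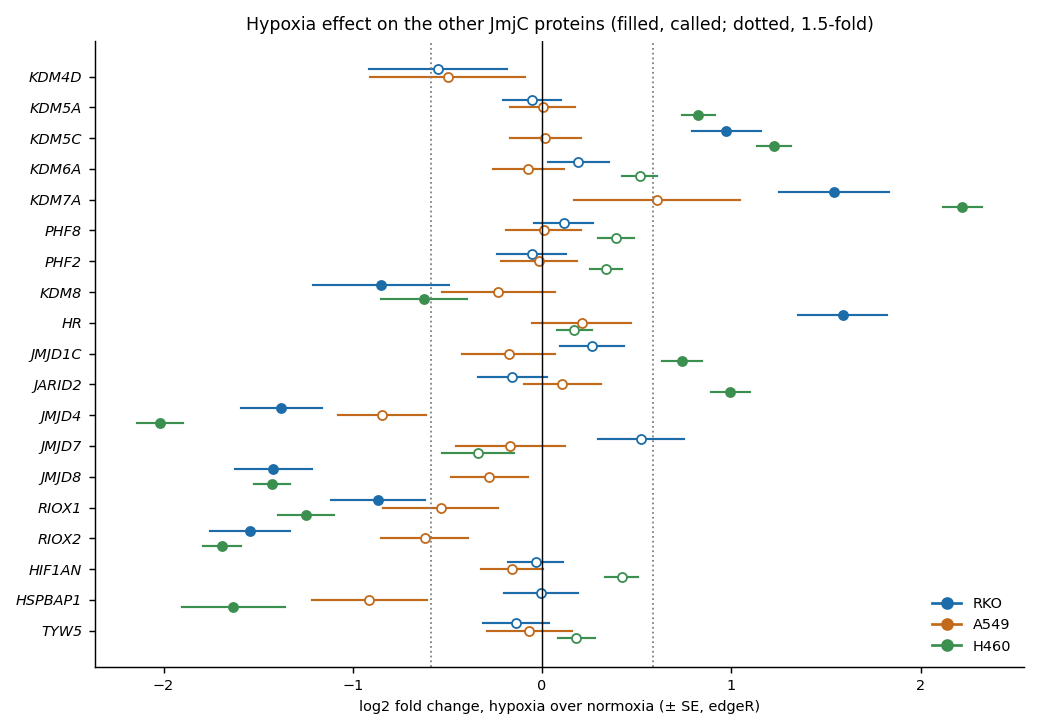
Log2 fold change of the other JmjC genes, hypoxia over normoxia (x axis), in RKO, A549 and H460 (colours), with its standard error. Filled points were called and dotted lines mark a 1.5-fold change; KDM5C and KDM7A are filled to the right and JMJD4, JMJD8, RIOX1, RIOX2 and KDM8 to the left, in RKO and H460.

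The enzymes that do the same work without a JmjC domain, and those that do the opposite work, were read as well. KDM1A and KDM1B, lysine demethylases that use flavin, were not called in any line by edgeR or DESeq2, with 1 lower at an unadjusted p under 0.05 in RKO. This was KDM1A, which passed the adjusted p there (-0.55 ± 0.15, adjusted p = 0.014) but at a 1.47-fold lower level missed the 1.5-fold minimum. Of 18 histone lysine methyltransferases, 2 rose and 2 fell in RKO, where 18.8% of all genes rose and 15.1% fell, and 5 rose and 4 fell in H460, where 24.6% rose and 27.3% fell. With library size only the H460 counts were 2 and 7. In A549, edgeR and DESeq2 called 0 of 18, with 2 lower at an unadjusted p under 0.05. EZH2, the methyltransferase whose mark on H3K27 KDM6B removes, went from 33.3 and 38.3 to 65.9 and 67.3 RPKM in RKO, a change of 0.83 ± 0.15. In H460 it went from 46.7 and 51.1 to 27.1 and 27.9 RPKM, a change of -0.85 ± 0.09. EZH2 is named because it was called in opposite directions in these lines, so no test of the difference is given.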

How the data were processed

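Poly(A)+ RNA of 12 cultures was sequenced strand-specifically from a single end. Per the labels and the study's methods, the authors trimmed reads, aligned them to GRCh37/hg19 with TopHat2 2.0.13 and the UCSC annotation, removed alignments of low mapping quality, and counted exon reads with HTSeq 0.6.1 in the reverse-stranded mode. The authors deposited these raw counts per gene and library, and an RPKM value for each. The deposited RPKM equalled the count divided by the table's gene length and by the summed counts, up to the usual constant factor, within 1% for 100% of the 206266 values above 0. All library columns matched a sample, and 0 were left unused. Starts in the table were raised by 1 to give 1-based positions.

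The members, gene lists and tests were chosen with earlier results of these data known. Samples were grouped by line and oxygen as labelled. Each line was fitted on its 4 libraries with edgeR 4.0.16 in R 4.3.3 (TMM scaling, quasi-likelihood F test, genes over 0.5 CPM in at least 2 libraries), with Benjamini-Hochberg adjustment over all genes tested. A gene was called at an adjusted p under 0.1 and a fold change over 1.5, the thresholds that the study used with DESeq2. Differences between lines came from 1 joint edgeR fit of the 12 libraries, by the adjusted p alone for interactions and with the fold minimum for normoxia. Log2 fold changes are edgeR estimates. Their SE was derived as the absolute log2 fold change over the square root of the F statistic, and the 95% intervals from this SE and a t quantile. Levels are counts divided by gene length and TMM-scaled library size. The scripts were tested on simulated counts. Adjusted p values are edgeR's unless another tool is named, and with 2 replicates per group they rest on the spread shared across genes.

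Alternatives were DESeq2 1.42.0, RLE factors, library size only, no filter or over 1 CPM in every library, a replicate block, no fold minimum, a joint fit, limma 3.58.1 on log2(RPKM + 0.1) and log2(RPKM + 1), and leaving out each library. Alternatives for the gene lists and EZH2 were added after seeing the data. All members were named, with genes of the lists called in opposite directions in different lines (EZH2; no list gene was called in all 3 lines) and the 3 genes most like KDM3A.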

Additional observations from a re-analysis of the deposited data

Results flagged for a closer look

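The hypoxia effect differed between lines, by the interaction test in the joint edgeR fit of 12 libraries at an adjusted p under 0.1, in 18 cases, which are given as differences of log2 fold changes. For RKO minus A549 they were 1.28 for KDM3A (adjusted p = 0.0201) and 0.95 for KDM4A (adjusted p = 0.0596). For RKO minus H460 the positive difference was that of KDM4A, 0.76 (adjusted p = 0.0622). The negative ones were -2.29 for JMJD6 (adjusted p = 0.000239), -1.75 for KDM5B (adjusted p = 0.000815) and -1.07 for KDM2B (adjusted p = 0.00109), followed by -0.82 for KDM6B (adjusted p = 0.0904), -0.81 for KDM4B (adjusted p = 0.0225), -0.62 for KDM4C (adjusted p = 0.0661) and -0.52 for KDM2A (adjusted p = 0.0573). For A549 minus H460 they were -2.08 for JMJD6 (adjusted p = 0.000607), -1.96 for KDM5B (adjusted p = 0.000509), -1.64 for KDM3A (adjusted p = 0.0016) and -1.04 for KDM6B (adjusted p = 0.0384), with -0.88 for KDM4C (adjusted p = 0.0152), -0.80 for KDM4B (adjusted p = 0.0254), -0.73 for KDM2A (adjusted p = 0.0138) and -0.71 for KDM2B (adjusted p = 0.0145). H460 cells differed from the others in medium as well as line. JMJD6 and KDM5B kept their differences from H460 under every alternative and every left-out library run here.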

How the results depend on the processing

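In none of the alternatives run was a member called lower in hypoxia in any line. In A549 the 2 members called higher became 1 with library size only and 0 with limma at either pseudocount, and 1 to 3 when single libraries were left out (1 without hypoxia replicate 2). In RKO the count of 3 became 6 with no fold change minimum and ranged from 3 to 6 without single libraries (6 without hypoxia replicate 2). The 8 differing effects between RKO and H460 became 4 with library size only and with limma at either pseudocount, and 4 to 7 without single libraries (4 without H460 hypoxia replicate 2 or normoxia replicate 1), while the 2 between RKO and A549 became 1 to 3 (1 without any 1 of 5 libraries). In normoxia the 2 members differing between RKO and A549 became 1 with limma at either pseudocount, 4 with no fold minimum and 1 to 3 without single libraries (1 without normoxia replicate 2 of either line), and the 4 between A549 and H460 became 2 with limma at a pseudocount of 1.

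Values that changed sign missed the thresholds in either setting, apart from the adjusted p of KDM3B in H460. The KDM3A difference between RKO and H460 turned to 0.028 with library size only, and to 0.027 and 0.047 with limma at pseudocounts of 0.1 and 1. The KDM4B difference between RKO and A549 turned to 0.12 with library size only, 0.12 and 0.14 with limma, 0.0089 with no filter and 0.019 with the stricter filter, and ranged from -0.28 to 0.24 without single libraries. JMJD6 in RKO turned to 0.0044 in the joint fit, 0.020 with library size only and 0.016 and 0.015 with limma, with a range of -0.19 to 0.12 without single libraries. KDM3B in A549 was -0.069 with library size only and -0.068 and -0.066 with limma, and in H460 -0.14, -0.14 and -0.14 in the same settings. Without single libraries KDM3B ranged from -0.015 to 0.059 in A549 and from -0.022 to 0.13 in RKO, JMJD6 in A549 from -0.19 to 0.70, KDM4A in A549 from -0.67 to 0.15 and KDM6B in A549 from -0.12 to 0.60.

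For the other JmjC proteins, the 0 higher and 0 lower calls in A549 became 1 and 4 with a replicate block, and the lower calls 2 with DESeq2, 3 in the joint fit and 1 with no filter. They ranged from 0 to 1 and from 0 to 3 without single libraries (3 lower without hypoxia replicate 1). The 5 higher calls in H460 became 3 with library size only and 3 and 2 with limma at the 2 pseudocounts, and the 5 lower calls in RKO ranged from 3 (without hypoxia replicate 1) to 5. For the methyltransferases, the 5 higher calls in H460 became 2 with library size only and with limma at either pseudocount, and the 4 lower calls 7 with library size only and with limma at a pseudocount of 0.1. In RKO the 2 lower calls became 1 with limma at either pseudocount, and without single libraries the higher calls ranged from 1 (without hypoxia replicate 1) to 4 (without hypoxia replicate 2) and the lower from 1 to 3.

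Libraries with the same replicate number deviated together with a correlation of 0.18 in RKO, 0.26 in A549 and 0.07 in H460, which was not taken as pairing. With a replicate block the members called higher were 3, 2 and 8 in RKO, A549 and H460. The cause of these shifts was not tested. With 2 replicates per group, effects near the 1.5-fold minimum, as for KDM4A, KDM4C and KDM6B in RKO, could not be placed on either side of it.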
